A study of Mus musculus with 12 samples.

Results

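The comparison described here is that of 3 retina libraries from Pilrb1/2 knockout mice with 3 from wild-type mice at P28, 28 days after birth. They are 6 of the 12 libraries of the series, and the other 6 hold the same genotypes at 12 months. Libraries were assigned by genotype and age as labelled, and 16486 of the 53028 genes listed were tested, namely those reaching 1 CPM in 3 or more of the 12 libraries. CPM here is the deposited level of a gene, its reads divided by a library size that was scaled by TMM, a normalization that assumes most genes do not differ. The wild-type mice are labelled Pilrb1/2+/+ and the knockouts Pilrb1/2 -/-. According to the series text, the deletion was made by CRISPR in C57BL/6J zygotes, took Pilra as well as Pilrb1/2, and was bred back to C57BL/6J. A deletion of this kind is present in every cell of the animal, so no cell type is singled out. The number of founder lines, the sex of the mice and whether each library is a separate animal are not given in the sources used here, so the p-values below measure the spread between these libraries only.

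PILR proteins are paired immunoglobulin-like receptors of immune cells that bind O-glycosylated ligands. The alpha receptor inhibits the cell through phosphatase-binding motifs in its tail, and the beta receptors activate it through the adaptor DAP12. In the retina at this age, rods make up most of the cells and their outer segments, the stacked membranes that hold the visual pigment, are at or near full length. Whole-retina RNA is therefore dominated by photoreceptor transcripts. Fewer cells of a type and less RNA per cell cannot be told apart in such bulk samples.

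The libraries differed in ways other than genotype. Depth, estimated from the step of which 12.1 to 28.4% of low values were whole multiples (within 0.01 reads), was about 14700000 to 25000000 reads, so that 3 reads were worth 0.119 to 0.190 CPM. All 3 wild-type libraries and knockout library 1 were male, whereas knockout libraries 2 and 3 were female by Xist and Y-linked transcripts. Lens genes, a sign of lens carried over at dissection, summed to 6396 CPM in knockout library 2, 2554 in wild-type library 3, 801 in wild-type library 2 and 30.6 to 171 in the other 3. Knockout libraries 2 and 3 stood apart on the leading principal components of the 6 libraries. They lay at opposite ends (-25.3 and 38.3) of the first component, which held 36.4% of the variance. Rbp3, a photoreceptor gene and a defining marker of retina, was at 1901 CPM or higher in all 6 libraries.

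The targeted receptors did not check the genotype labels. Pilrb1 and Pilrb2, on chromosome 5 (GRCm38, 137852147 to 137858106 and 137865827 to 137871815), were listed at 0 in all 6 libraries, wild type included. Pilra, beside them (137821952 to 137836281), is named in the series text as deleted, yet it was listed at 0.133, 0.167 and 0.170 CPM in the libraries labelled wild type against 0.441, 1.16 and 0.819 CPM in those labelled knockout. The difference was 0.648 CPM (two-sided exact permutation p = 0.1, the smallest that 3 against 3 allows), in the direction opposite to a deletion. The wild-type values are worth about 3 reads, and the coding form Pilra-201 was at 0.0632, 0.0687 and 0.0834 RPKM in wild type against 0.21, 0.185 and 0.161 RPKM in knockout. How much of the gene was deleted, and whether these reads come from it or from a similar sequence, was not tested. Wild type and knockout mean the libraries so labelled throughout, and every direction given rests on those labels.

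At P28, 246 genes passed limma at a Benjamini-Hochberg adjusted p of 0.05, which is 1.49% of the genes tested. Of these, 165 (1.0%) rose and 81 (0.491%) fell in knockout. Most changes were small. The median log2 fold change on the log2(CPM + 1) scale was 0.53 among the rises and -0.59 among the falls, and only 5 rises and 12 falls reached 1. For all 246 genes the 3 knockout libraries lay on 1 side of the 3 wild-type libraries, as they did for 23.8% of all genes tested. Rises came from longer transcripts (median 2701 bases) than falls (1327 bases), against 1848 bases over all tested genes. Their GC content was lower, at a median of 45.4% against 50.8%. After smooth trends of GC and length were taken out of each library, the split turned to 142 higher and 236 lower, and 92 of the 165 rises and 57 of the 81 falls were still called.

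These calls rest on the spread pooled over all 12 libraries. A fit to the 6 P28 libraries alone with limma called 0 genes, though 2615 had an unadjusted p under 0.05 there. Without knockout library 2, the library with the most lens RNA, 889 genes (5.39%) rose and 515 (3.12%) fell, and the 246 were all among them. The count fell to 3 without wild-type library 3, 6 without knockout library 3, 7 without wild-type library 1 and 81 without wild-type library 2. It was 328 without knockout library 1. Of the rises 46, and of the falls 19, were called in 3 or more of these 6 fits. With a term for sex all 246 kept their direction and an unadjusted p under 0.05, but only Pds5a passed adjustment. Comparing the 1 male knockout library with the male wild-type libraries, in a fit of male libraries only, called 5 genes higher and 18 lower. That knockout group is 1 library, assumed to vary like the other groups, so the fit holds no measure of spread among knockouts. Quantile normalization gave 176 higher and 141 lower, and gene values summed from transcript RPKM gave 122 higher and 214 lower.

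**Figure D1:**
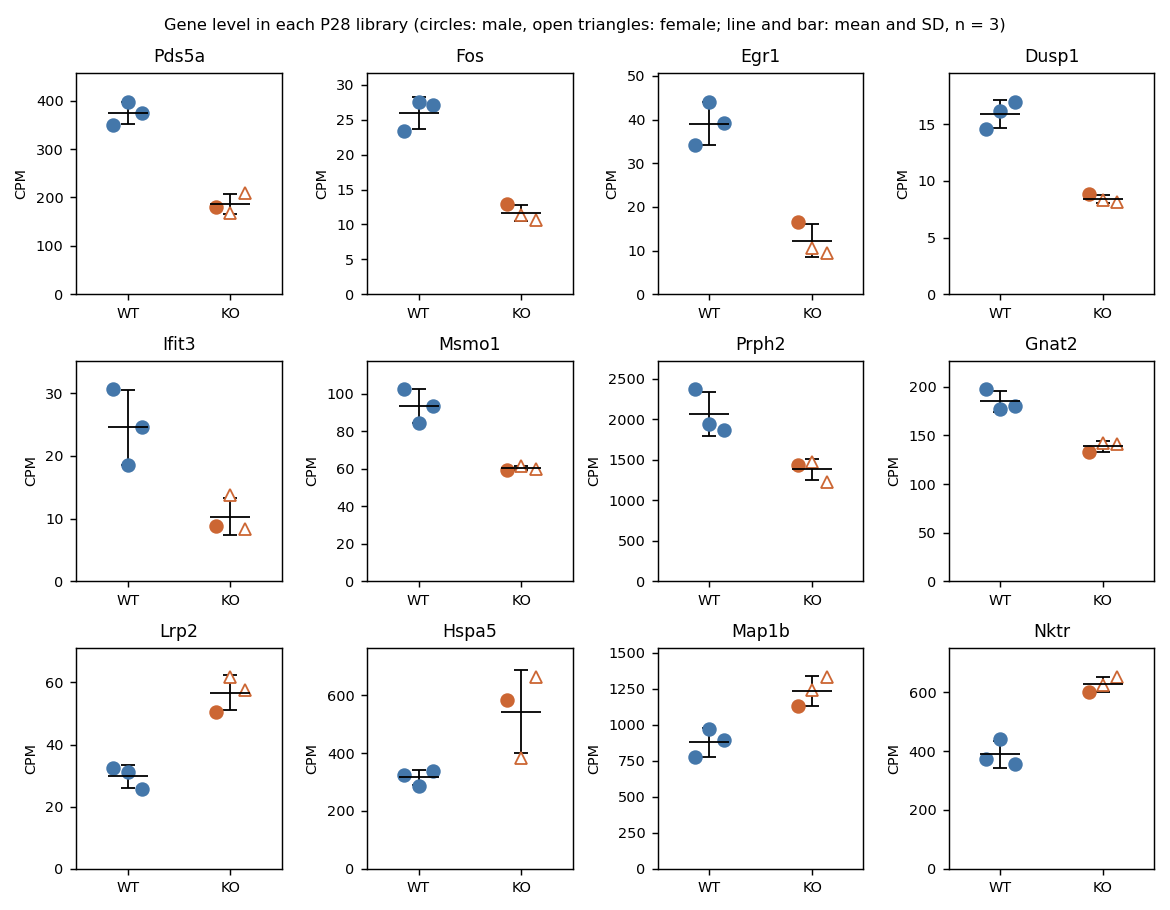
Level of 12 genes in CPM (vertical axes, starting at 0) in each P28 library, wild type (WT) against knockout (KO), with the mean and SD of 3 libraries. Circles are male libraries and open triangles female ones. No knockout point, male or female, overlaps a wild-type point of the same gene. This follows from the choice of called genes, since the libraries of all 246 did not overlap.

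Pds5a had the smallest p of all genes and was the only fall called in each of the 6 fits that left out a library. It encodes a protein that loads onto cohesin, the ring that holds chromatids and DNA loops, and helps to release it. The gene lies on chromosome 5 (GRCm38, 65605721 to 65698273, minus strand), the chromosome that also carries the targeted receptors. Chromosome 5 held 8.54% of the called genes and 6.09% of the tested genes. On it N4bp2 (65763521 to 65830108) rose (log2 fold change 0.83 ± 0.11, adjusted p = 0.0128). Whether position plays a part was not tested. The level of Pds5a was 351, 397 and 375 CPM in wild type against 181, 168 and 209.9 CPM in knockout (log2 fold change -1.01 ± 0.09, adjusted p = 0.00177). The highest knockout library was far below the lowest wild-type library. Other cohesin genes did not move with it. Of 13 tested members of a list of cohesin subunits and regulators Pds5a alone passed, and Nipbl, the cohesin loader, was at 0.34 (adjusted p = 0.0979) and Wapl, the releasing partner of Pds5a, at 0.30 (adjusted p = 0.114).

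The transcript table shows which Pds5a forms carried the fall. Its values are RPKM, reads scaled by transcript length and library size, estimated among forms that share exons. Of 46931 transcripts tested on log2(RPKM + 0.5), 140 (0.298%) passed. Without a library the count was 646 (knockout 2), 154 (knockout 1), 11 (wild type 2), 10 (wild type 3), 6 (wild type 1) or 5 (knockout 3), and 2 in the P28 libraries alone. Pds5a-201, a coding form, was at 45.8, 47.8 and 45.5 RPKM in wild type against 11.7, 16.5 and 17.5 RPKM in knockout (log2 fold change -1.59 ± 0.16, adjusted p = 0.0145). Pds5a-212, the other abundant coding form, was at 47, 55.6 and 55.6 RPKM in wild type against 22.6, 12.8 and 25.5 RPKM in knockout (log2 fold change -1.41 ± 0.22, adjusted p = 0.0411). Both were lower in every knockout library. The retained-intron forms did not follow. Pds5a-210, which keeps an intron and is annotated as non-coding, was at 2.66, 3.12 and 2.75 RPKM in wild type against 4.54, 3.54 and 5.44 RPKM in knockout (adjusted p = 0.146), above wild type in each knockout library but not past the test. As a share of the gene's RPKM this form made up 2.36, 2.46 and 2.22% in wild type against 8.01, 7.15 and 8.24% in knockout (log2 change of the share 1.65 ± 0.14, adjusted p = 0.00467). It was 1 of 4 transcripts whose share of the gene's output passed, out of 39484 tested (0.0101%), 3 of them higher (0.00760%) and 1 lower (0.00253%), and held in each of the 6 fits without a library. That count of 4 became 27 without knockout library 2, 12 without wild-type library 2 and 2 without knockout library 3. Pds5a-206, another retained-intron form, also took a larger share (log2 change of the share 1.57 ± 0.18, adjusted p = 0.0347).

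**Figure D2:**
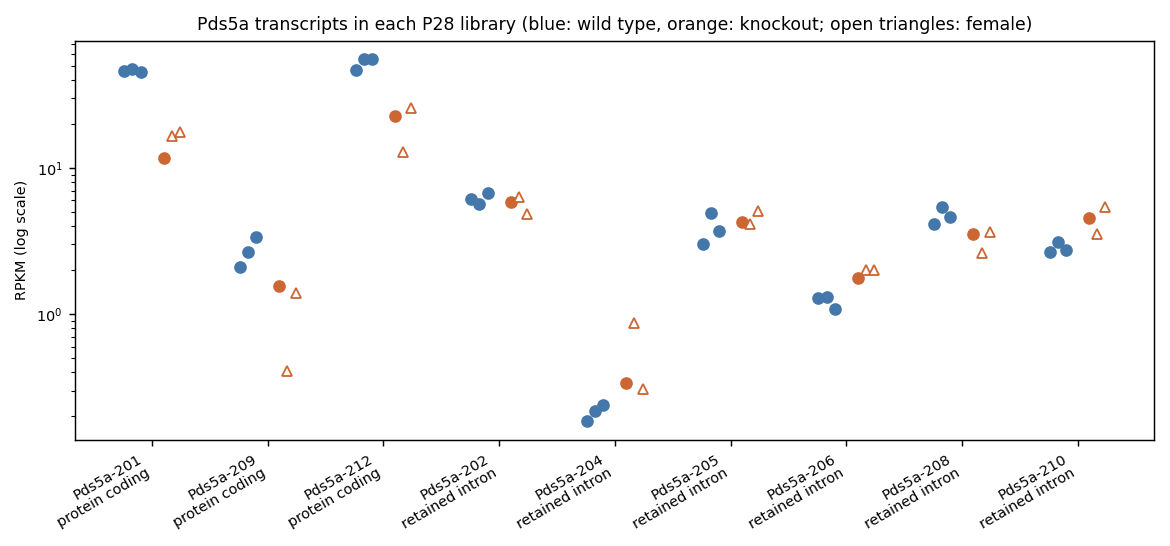
RPKM of the 9 tested Pds5a transcripts (log axis) in each P28 library, blue for wild type and orange for knockout, open triangles for female libraries. The coding forms Pds5a-201 and Pds5a-212 drop in all knockout libraries, while retained-intron forms Pds5a-206 and Pds5a-210 sit above wild type.

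The other shares that passed belonged to Zfand5 and Tnfsfm13. Given next are their RPKM values with the results of the transcript test, not of the share test. Zfand5-203, a retained-intron form of a zinc finger gene of protein turnover, was at 0.426, 0.498 and 0.767 RPKM in wild type against 3.2, 1.99 and 3.87 RPKM in knockout (log2 fold change 1.70 ± 0.21, adjusted p = 0.0249). The coding form Zfand5-201 was much more abundant and overlapped between genotypes. Tnfsfm13-202, a coding form, was at 6.35, 4.24 and 10.4 RPKM in wild type against 0, 0 and 0 RPKM in knockout (adjusted p = 0.0109), so it was listed at 0 in every knockout library. Tnfsfm13-203, the other coding form, was at 13, 12.7 and 10.3 RPKM in wild type against 20.9, 15.7 and 15.4 RPKM in knockout and did not pass (adjusted p = 0.161).

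Photoreceptor genes were lower where they changed. Of 28 tested rod genes 0 rose and 1 fell (0.491% of all genes did). In 14 of the 28 all knockout libraries lay below all wild-type libraries, against 13.2% of all genes (median log2 fold change of the list -0.28, against -0.01 over all genes). Prph2, the tetraspanin that shapes the rim of outer segment discs, was at 2370.0, 1946 and 1865 CPM in wild type against 1442, 1470.1 and 1232 CPM in knockout (log2 fold change -0.57 ± 0.13, adjusted p = 0.0468). Its lowest wild-type library lay well above its highest knockout library. Pde6a, the catalytic alpha subunit of the rod phosphodiesterase, was at 2232, 2048 and 2001 CPM in wild type against 1743, 1648 and 1662 CPM in knockout and did not pass (adjusted p = 0.0825). Rbp3, which carries retinoids between photoreceptors and pigment epithelium, was at 2735, 2679 and 2623 CPM in wild type against 2072, 2036 and 1901 CPM in knockout (log2 fold change -0.42 ± 0.09, adjusted p = 0.0457). Each genotype spanned a narrow range and the ranges were apart. Without knockout library 2, 7 of the 28 rod genes fell.

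Of 15 tested cone genes 3 fell (0.491% of all genes did) and 0 rose. All knockout libraries lay below wild type in 3, against 13.2% of all genes, and above it in 2, against 10.5%. Opn1sw, the short-wavelength cone opsin, was at 327, 279 and 278 CPM in wild type against 212, 208 and 194 CPM in knockout (log2 fold change -0.52 ± 0.12, adjusted p = 0.0457). Gnat2, the alpha subunit of cone transducin, was at 197, 177 and 180.3 CPM in wild type against 133, 143 and 141 CPM in knockout (log2 fold change -0.41 ± 0.08, adjusted p = 0.0291). Pde6h, the inhibitory subunit of the cone phosphodiesterase, was at 126, 97 and 86.4 CPM in wild type against 53.1, 54.8 and 49.6 CPM in knockout (log2 fold change -0.94 ± 0.20, adjusted p = 0.0388). In each of them the wild-type libraries spread more widely than the knockout libraries, and the groups did not overlap. The median of the cone list was -0.14, nearer 0 than these members. All 3 also fell once GC and length trends were removed. Bipolar, amacrine, horizontal, ganglion and Mueller cell lists had 0 members called in either direction out of 20, 19, 11, 19 and 20 tested.

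Genes of the immediate early response, induced within minutes by neuronal activity or stress, included Egr1, the deepest fall of a named gene. Of 21 tested, 3 fell (0.491% of all genes did) and 0 rose (list median -0.11). Egr1, a zinc finger transcription factor, was at 34.1, 44 and 39.1 CPM in wild type against 16.6, 10.5 and 9.53 CPM in knockout (log2 fold change -1.63 ± 0.24, adjusted p = 0.0151). Fos, a subunit of the AP-1 transcription factor, was at 23.4, 27.6 and 27.1 CPM in wild type against 12.9, 11.4 and 10.6 CPM in knockout (log2 fold change -1.10 ± 0.13, adjusted p = 0.00653). Dusp1, a phosphatase that shuts off MAP kinases, was at 14.5, 16.2 and 17 CPM in wild type against 8.82, 8.28 and 8.18 CPM in knockout (log2 fold change -0.84 ± 0.13, adjusted p = 0.0167). The groups did not overlap in any of them, and the knockout libraries spread more for Egr1, highest in the male one, than for Fos and Dusp1. At 12 months their log2 fold changes were -0.54, -0.11 and -0.20, and none passed.

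CREB, a factor activated by cyclic AMP and calcium, drives such genes through the element TGACGTCA or its shorter form TGACG. The RefSeq promoter windows (GRCm38.p6) of Fos and Dusp1 hold them, and they are shown because these genes fell together. What the window of Egr1, which fell too, holds was not examined. TGACG was searched on both strands in 32851 windows from 250 bases before to 50 bases after a gene's start and was found in 20.8% of them. The full element, which contains the shorter one, was in 1.79%. Capitals mark the matches. The stretch of Fos is chr12:85473740-85473889 on the plus strand and ends at the base before its start, and that of Dusp1 is chr17:26508563-26508682 on the minus strand.
Fos promoter: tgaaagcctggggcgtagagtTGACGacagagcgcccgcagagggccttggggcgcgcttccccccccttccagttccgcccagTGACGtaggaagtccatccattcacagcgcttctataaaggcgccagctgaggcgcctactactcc
Dusp1 promoter: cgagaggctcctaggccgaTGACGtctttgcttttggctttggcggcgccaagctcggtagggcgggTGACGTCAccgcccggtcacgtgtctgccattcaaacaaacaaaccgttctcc
In Fos the matches began 129 and 66 bases before the start. In Dusp1 the full element began 143 bases before it and a further TGACG lay at 191 bases. TGACG was also in the windows of Insig1 and Pde6h, which fell, and of Hspa5, which rose. A match describes the letters in the window and is not evidence of binding. A sterol element, TCACNCCAC (1.24% of windows), was in 0 of the 15 genes whose windows were searched, Insig1 and Msmo1 among them. GGATTA (7.06% of windows), searched for photoreceptor genes, was in Gnat2, Rbp3 and Ifit3 and not in Opn1sw, Pde6h or Prph2. No match says only that the letters are not in the window.

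Interferon-stimulated genes were lower where they changed. Of 25 tested, 2 fell (0.491% of all genes did) and 0 rose, and 12 had all knockout libraries below all wild-type ones, against 13.2% of all genes (list median -0.34). Ifit3, an antiviral protein of the tetratricopeptide repeat family, was at 30.6, 18.6 and 24.5 CPM in wild type against 8.76, 13.8 and 8.44 CPM in knockout (log2 fold change -1.18 ± 0.20, adjusted p = 0.0223). Ifit1, its neighbour, which binds foreign RNA ends, was at 4.56, 3.51 and 4.08 CPM in wild type against 1.41, 1.89 and 1.39 CPM in knockout (log2 fold change -0.98 ± 0.17, adjusted p = 0.0225). The groups were separate in both genes, with knockout library 2 the highest knockout. Both lie in a cluster of similar genes on chromosome 19, so that reads may be shared with close copies. Gbp3, an interferon-induced GTPase, was at -0.57 and did not pass (adjusted p = 0.0744). Of 11 tested genes of antigen presentation 0 passed, and the class I gene H2-D1 was at -0.54 (adjusted p = 0.0755).

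Interferon acts on such genes through the interferon response element. Its core was found on either strand in 3.44% of all RefSeq windows and occurred 2 times in each of the promoters of Ifit1 and Ifit3, always on the minus strand. The stretches below end at the base before the start, and capitals mark the core as read on the plus strand. That of Ifit1 is chr19:34640739-34640888 and that of Ifit3 is chr19:34583349-34583528, both on the plus strand.
Ifit1 promoter: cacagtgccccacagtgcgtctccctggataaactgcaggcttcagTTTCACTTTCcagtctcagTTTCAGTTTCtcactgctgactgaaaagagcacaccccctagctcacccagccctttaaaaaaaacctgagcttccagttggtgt
Ifit3 promoter: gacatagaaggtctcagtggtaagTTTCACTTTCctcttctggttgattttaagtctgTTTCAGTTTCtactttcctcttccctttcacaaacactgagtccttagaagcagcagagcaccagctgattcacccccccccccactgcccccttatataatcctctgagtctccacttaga
The cores began 104 and 85 bases before the start of Ifit1 and 156 and 122 bases before that of Ifit3.

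Sterol genes were lower where they changed. Cells make cholesterol through a chain of enzymes that the SREBP factors raise when sterols run short. Of 27 tested genes of synthesis and uptake, 3 fell (0.491% of all genes did), 0 rose and 17 had all knockout libraries below wild type, against 13.2% of all genes (list median -0.33). Insig1, which holds SREBP in the endoplasmic reticulum, was at 115, 105 and 107 CPM in wild type against 62.9, 86.4 and 62.3 CPM in knockout (log2 fold change -0.63 ± 0.12, adjusted p = 0.0291). Msmo1, an oxidase of the pathway, was at 102.5, 84.7 and 93.5 CPM in wild type against 59.6, 61.5 and 60.2 CPM in knockout (log2 fold change -0.62 ± 0.08, adjusted p = 0.0134). The 3 knockout libraries of Msmo1 were nearly identical, whereas Insig1 was less reduced in knockout library 2. Once trends of GC and length were taken out, 11 of the 27 fell, in a fit where 236 of 16268 genes did. In the opposite direction, Abca1, the exporter that loads cholesterol onto lipoprotein, was at 36.9, 41.3 and 40.4 CPM in wild type against 73.8, 51 and 86.2 CPM in knockout (log2 fold change 0.78 ± 0.17, adjusted p = 0.0433). It was the only call of 13 tested genes in a list of cholesterol efflux and related genes, whose median was -0.002. Abca1 was no longer called once trends of GC and length were taken out (limma adjusted p = 0.073). Lrp2, the large endocytic receptor megalin, was at 32.6, 31.1 and 25.6 CPM in wild type against 50.6, 61.9 and 57.6 CPM in knockout (log2 fold change 0.91 ± 0.12, adjusted p = 0.0128), and its groups did not overlap.

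Enzymes of fuel choice split in direction. Hk2, the hexokinase that feeds photoreceptor glycolysis, was at 254, 277 and 263 CPM in wild type against 146, 184 and 123.02 CPM in knockout (log2 fold change -0.83 ± 0.14, adjusted p = 0.0242). Pdk1, which holds back pyruvate entry into mitochondria, was at 71.9, 68.2 and 77.1 CPM in wild type against 92.3, 108 and 103 CPM in knockout (log2 fold change 0.47 ± 0.10, adjusted p = 0.0373). Pfkfb2, which makes the activator of phosphofructokinase, was at 526, 534 and 443 CPM in wild type against 654, 741 and 721 CPM in knockout (log2 fold change 0.50 ± 0.10, adjusted p = 0.0362). Hk2 was lower, and Pdk1 and Pfkfb2 higher, in every knockout library. Of 28 tested genes of glycolysis and pyruvate entry, which do not include Pfkfb2, 1 rose and 1 fell, and the list median was -0.17.

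Few genes of the ribosome, respiratory chain and proteasome passed. Of 81 tested cytosolic ribosomal protein genes 3 fell and 0 rose, and 52 had all knockout libraries below wild type, against 13.2% of all genes (0.491% of all genes fell; median -0.46). Rpl11, which also restrains MDM2, was at 26.2, 16.9 and 18.3 CPM in wild type against 8.75, 10.5 and 7.43 CPM in knockout (log2 fold change -1.11 ± 0.24, adjusted p = 0.0413). Rps7 was at -0.50 (adjusted p = 0.032) and Rpl35a at -0.46 (adjusted p = 0.0457). For genes of this family reads may be shared with pseudogene copies. Of 78 mitochondrial ribosomal protein genes 0 passed and 48 lay below wild type in this sense, against the same 13.2% (median -0.32). The nuclear genes of the respiratory chain had 0 called of 39 and 22 below (median -0.33). The proteasome had 1 call of 47, the catalytic core subunit Psmb7, at -0.48 (adjusted p = 0.0457), with 27 below. Timm13, a chaperone for import into mitochondria, was at 2.12, 2.09 and 1.72 CPM in wild type against 0.562, 0.455 and 0.433 CPM in knockout (log2 fold change -1.0 ± 0.20, adjusted p = 0.0344). The medians moved toward 0 with GC and length trends removed, to -0.30 for cytosolic and -0.22 for mitochondrial ribosomal proteins, -0.21 for the respiratory chain and -0.18 for the proteasome. The calls did not become fewer. In that fit, where 236 of all genes fell and 142 rose, 4 cytosolic and 3 mitochondrial ribosomal protein genes fell. The respiratory chain had 0 calls, and the proteasome 3 falls and 1 rise. Transcripts of the mitochondrial genome made up 7.36 to 9.31% of the signal in wild type and 4.56 to 7.08% in knockout, with 0 of 13 called (median -0.65). With GC and length trends removed, 5 of these 13 fell, 0 rose, and the median was -0.64.

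**Figure D3:**
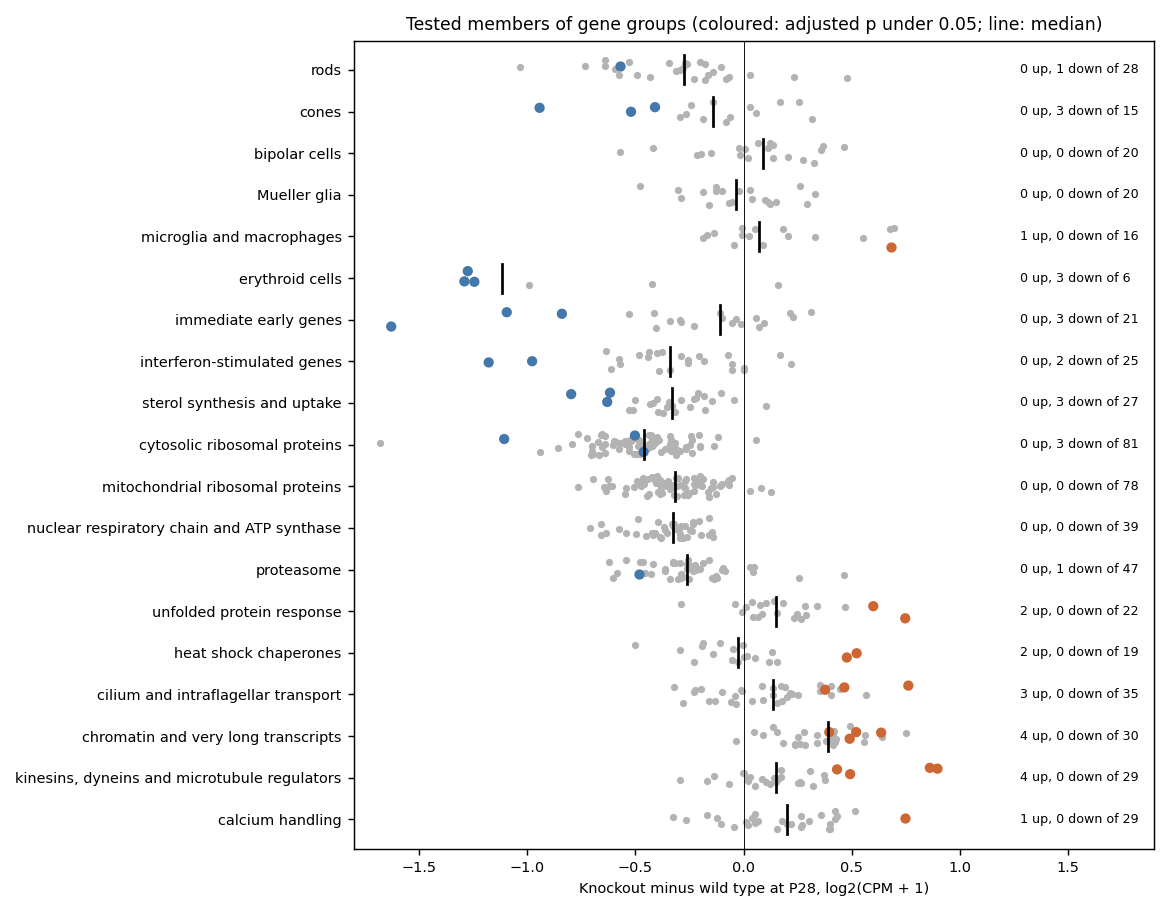
Log2 fold change (horizontal axis, knockout minus wild type, log2(CPM + 1)) of each tested member of 19 gene groups. Coloured points passed limma, black lines are group medians and counts stand at the right. Called ribosomal, sterol, interferon, cone and immediate early genes lie left of 0, and called chaperone, cilium, chromatin and microtubule genes lie right of it.

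The list counts depended on which libraries were in the fit. Without knockout library 2, where 5.39% of all genes rose and 3.12% fell, 4 of the cone genes, 5 of the immediate early, 6 of the interferon, 8 of the sterol and 20 of the cytosolic ribosomal genes fell. In that fit 5 genes of the unfolded protein response, 9 of chromatin and 6 of the microtubule list rose, and 7 of the cilium list rose and 1 fell. Without wild-type library 3 none of these 9 lists, nor the rod list, had a member called. Without knockout library 3, or without wild-type library 1, 1 immediate early gene was called and no member of the others.

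Listed chaperone genes of the endoplasmic reticulum and of the heat shock group were higher where they changed, but Hspb6, outside the lists, fell. Hspa5, the main lumenal chaperone BiP, was at 323, 286 and 337 CPM in wild type against 583, 383 and 664 CPM in knockout (log2 fold change 0.75 ± 0.16, adjusted p = 0.0433). Xbp1, whose spliced form turns on the unfolded protein response, was at 73.4, 67.7 and 67.4 CPM in wild type against 116, 94.8 and 108 CPM in knockout (log2 fold change 0.60 ± 0.10, adjusted p = 0.0242). Hspa5 was least raised in knockout library 2 and the groups were separate in both. These were 2 rises and 0 falls of 22 tested members of the response (median 0.15). Calr, a lumenal chaperone of glycoproteins, was at 0.47 and did not pass (adjusted p = 0.11), but its retained-intron form Calr-203 was at 5.33, 5.93 and 5.45 RPKM in wild type against 14.1, 9.65 and 13.5 RPKM in knockout (log2 fold change 1.07 ± 0.14, adjusted p = 0.0249).

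In the cytosol 2 of 19 heat shock chaperone genes rose and 0 fell (median -0.03). Hsph1, an exchange factor for HSP70, was at 66.6, 69.9 and 73.6 CPM in wild type against 104, 90.1 and 110.3 CPM in knockout (log2 fold change 0.52 ± 0.09, adjusted p = 0.0223). Chordc1, a partner of HSP90, was at 90.7, 93.2 and 93.9 CPM in wild type against 128, 115 and 146 CPM in knockout (log2 fold change 0.48 ± 0.10, adjusted p = 0.0387). Heat shock factor binds the heat shock element, which occurred on either strand in 0.603% of RefSeq windows. The Chordc1 window holds 3 overlapping matches at its start, and the RefSeq windows of Hsph1 1 each. The stretch of Chordc1 is chr9:18292207-18292291 on the plus strand, with the matches in capitals.
Chordc1 start: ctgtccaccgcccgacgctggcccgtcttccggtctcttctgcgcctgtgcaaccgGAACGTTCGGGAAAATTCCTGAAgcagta
The matches began 4 bases before the start and 1 and 6 bases after it. This element was searched because both genes had risen, so its presence is a description only.

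Chromatin genes were higher where they changed. Of 30 tested chromatin genes with very long transcripts, 4 rose and 0 fell, and 18 had all knockout libraries above wild type, against 10.5% of all genes (median 0.39). Chd2, a chromatin remodeller, was at 126, 137 and 128 CPM in wild type against 182, 202 and 178 CPM in knockout (log2 fold change 0.52 ± 0.09, adjusted p = 0.0225). Kmt2c, a histone methyltransferase, was at 317, 393 and 308 CPM in wild type against 452, 474 and 498 CPM in knockout (log2 fold change 0.49 ± 0.10, adjusted p = 0.0351). Kmt2e, a relative without known enzyme activity, was at 212, 235 and 211 CPM in wild type against 276, 428 and 336 CPM in knockout (log2 fold change 0.64 ± 0.13, adjusted p = 0.039). The male knockout library was the lowest knockout for Kmt2c and Kmt2e, and above wild type as for every called rise. Setd5 was at 0.40 (adjusted p = 0.0306). Once trends of GC and length were taken out, the list median was 0.26 and 1 of the 4, Chd2, was still called.

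Cytoskeletal genes were also higher where they changed. Of 29 kinesins, dyneins and microtubule regulators, 4 rose and 0 fell (median 0.15). Map1b, a microtubule protein of growing axons, was at 772, 969 and 892 CPM in wild type against 1126, 1239.5 and 1333 CPM in knockout (log2 fold change 0.49 ± 0.10, adjusted p = 0.0351). Mark1, a kinase that loosens tau-family proteins from microtubules, was at 15.8, 23.4 and 24.6 CPM in wild type against 35, 38.3 and 46.8 CPM in knockout (log2 fold change 0.90 ± 0.16, adjusted p = 0.0285). Kif13b, a plus-end motor, was at 22.8, 25.5 and 20.4 CPM in wild type against 35.2, 56.9 and 37.5 CPM in knockout (log2 fold change 0.86 ± 0.16, adjusted p = 0.0285). Kif13b was highest in knockout library 2 and Map1b and Mark1 in knockout library 3, and no groups overlapped. Hook3, which links dynein to its cargo, was at 308, 323 and 276 CPM in wild type against 466, 450.1 and 592 CPM in knockout (log2 fold change 0.72 ± 0.11, adjusted p = 0.0151), and Apc, which anchors microtubule ends and restrains Wnt signalling, was at 0.67 (adjusted p = 0.0307). Lamellipodin, encoded by Raph1, was at 69.6, 85.7 and 73 CPM in wild type against 116, 123.3 and 153 CPM in knockout (log2 fold change 0.77 ± 0.11, adjusted p = 0.0151).

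Cilium genes had 3 rises and 0 falls of 35 tested (median 0.14). The photoreceptor outer segment is a modified cilium, and mutations in such genes cause retinal dystrophy. Rpgr, a protein of the connecting cilium, was at 75.8, 90.7 and 78.9 CPM in wild type against 105, 120.0 and 115 CPM in knockout (log2 fold change 0.47 ± 0.09, adjusted p = 0.0362). Lca5, which encodes lebercilin, was at 112, 106 and 96.8 CPM in wild type against 136, 138 and 135 CPM in knockout (log2 fold change 0.38 ± 0.08, adjusted p = 0.0397). Fbf1, a protein of the fibres that anchor the cilium, was at 15.7, 16.7 and 13 CPM in wild type against 25.1, 31 and 23.2 CPM in knockout (log2 fold change 0.76 ± 0.14, adjusted p = 0.0264). Lca5 was almost the same in each knockout library, and the wild-type libraries were all below. Rpgr was among the genes no longer called once trends of GC and length were taken out. Cep290-201, the coding form of another connecting cilium gene, was at 15.7, 16.8 and 15.4 RPKM in wild type against 23.8, 26.8 and 29 RPKM in knockout (log2 fold change 0.71 ± 0.12, adjusted p = 0.048).

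At synapses the calls were few and upward. Grin2b, an NMDA receptor subunit, was at 32.1, 46.2 and 44.2 CPM in wild type against 57.3, 62.7 and 72 CPM in knockout (log2 fold change 0.65 ± 0.14, adjusted p = 0.0433) and was the only call of 32 transmitter receptor genes. Cacna1e, an R-type calcium channel, was at 18.3, 31.1 and 21.5 CPM in wild type against 36.7, 35 and 47.4 CPM in knockout (log2 fold change 0.75 ± 0.16, adjusted p = 0.0457), 1 of 29 calcium genes. Scn2a, a neuronal sodium channel, was at 0.48 (adjusted p = 0.0484), 1 of 31 sodium and potassium channels. Their wild-type library 1 was the lowest of all 6 libraries. Erc1, a scaffold of the active zone, was at 0.63 (adjusted p = 0.0457). None of these synaptic genes was called once GC and length trends were removed. Ptprd, a receptor phosphatase that organizes synapses, was at 356, 431 and 404 CPM in wild type against 641, 575 and 706 CPM in knockout (log2 fold change 0.69 ± 0.10, adjusted p = 0.0167) and was still called.

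Among cell types other than neurons, blood stood out. Of 6 erythroid genes tested, 3 adult globin genes fell (0.491% of all genes did). They were Hbb-bt at -1.29 (adjusted p = 0.0167), Hba-a1 at -1.25 (adjusted p = 0.0269) and Hba-a2 at -1.28 (adjusted p = 0.0473). Summed over the list the level was 33.3, 49.6 and 50.1 CPM in wild type against 17.5, 25.1 and 13.3 CPM in knockout. The globin copies are near-identical, so reads may be split between them. How much blood stayed in the vessels of each retina was not tested. Of 16 microglia and macrophage genes 1 rose, the integrin gene Itgam, at 3.76, 4.46 and 3.23 CPM in wild type against 6.36, 6.6 and 7.07 CPM in knockout (log2 fold change 0.68 ± 0.14, adjusted p = 0.0397). Cx3cr1, the fractalkine receptor of microglia, was at 4.23, 4.83 and 4.96 CPM in wild type against 7.87, 6.6 and 7.5 CPM in knockout and did not pass (adjusted p = 0.0523). Nes, an intermediate filament gene of reactive glia, was at 4.05, 4.29 and 5.66 CPM in wild type against 8.97, 7.08 and 9.71 CPM in knockout (log2 fold change 0.76 ± 0.15, adjusted p = 0.0377), the only call among 16 tested genes of astrocytes and reactive glia. None of 18 pigment epithelium, 20 lens, 19 vessel wall, 17 complement and 11 corneal or ciliary genes passed.

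RNA-binding proteins changed in both directions. Hnrnpa1, an abundant splicing repressor, was at 513, 479 and 536 CPM in wild type against 325, 341 and 345 CPM in knockout (log2 fold change -0.59 ± 0.07, adjusted p = 0.00991) and was the only call among 43 hnRNP and SR genes. Its coding form Hnrnpa1-202 was at 163, 137 and 172 RPKM in wild type against 74.7, 74.2 and 82.4 RPKM in knockout (log2 fold change -1.02 ± 0.15, adjusted p = 0.038). Of the SR genes, the coding form Srsf5-201 was at 37.6, 33 and 25 RPKM in wild type against 11, 7.94 and 9.77 RPKM in knockout (log2 fold change -1.68 ± 0.22, adjusted p = 0.0249), although Srsf5 as a gene did not pass. Nktr, a cyclophilin with an SR-rich tail, was at 373, 440.4 and 354 CPM in wild type against 601, 625 and 653 CPM in knockout (log2 fold change 0.69 ± 0.09, adjusted p = 0.00991). Sfpq, a nuclear protein that keeps long genes transcribed and spliced, was at 370.4, 416 and 399 CPM in wild type against 559, 642 and 607 CPM in knockout (log2 fold change 0.61 ± 0.09, adjusted p = 0.0167). Pnisr, an SR-rich nuclear speckle protein, was at 505, 577 and 522 CPM in wild type against 775, 654 and 846 CPM in knockout (log2 fold change 0.50 ± 0.10, adjusted p = 0.0365). In Hnrnpa1 the knockout libraries differed little from each other, and Nktr and Sfpq were higher in each knockout library than in any wild-type library. Gm33843, a noncoding RNA gene of unknown role on chromosome 10, was at 9.2, 7.39 and 5.94 CPM in wild type against 21.7, 24.9 and 21.6 CPM in knockout (log2 fold change 1.495 ± 0.16, adjusted p = 0.00323) and was the only rise called in each fit without a library.

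Retained-intron transcripts, which keep an intron and are rarely translated, were mostly higher when called. Of 10535 tested, 46 were higher and 6 lower (0.494%), whereas of 24230 protein-coding transcripts 15 were higher and 41 lower (0.231%). Over all transcripts 84 (0.179%) were higher and 56 (0.119%) lower. Retained-intron forms held 8.13, 9.32 and 7.89% of the summed RPKM of all transcripts in wild type and 9.89, 11.8 and 9.64% in knockout. The genotypes did not overlap, but wild-type library 2 was close to the lowest knockout. Other classes shifted likewise without overlap. Processed transcripts held 5.13 to 5.61% in wild type against 5.81 to 6.77% in knockout, forms marked for nonsense-mediated decay 2.65 to 2.85% against 2.98 to 3.38%, and lincRNAs 1.11 to 1.32% against 1.40 to 1.62%. Protein-coding transcripts held 70.9 to 72.6% in wild type against 69.3 to 70.4% in knockout. Nktr-213 was at 3.82, 3.96 and 3.23 RPKM in wild type against 8.47, 13.9 and 11.4 RPKM in knockout (log2 fold change 1.47 ± 0.18, adjusted p = 0.0249). Sag-202, a retained-intron form of rod arrestin, was at 18, 18.5 and 12.6 RPKM in wild type against 30.6, 30.9 and 29.4 RPKM in knockout (log2 fold change 0.89 ± 0.15, adjusted p = 0.0482). Its share of the gene's RPKM was 1.07, 1.36 and 0.952% in wild type against 2.13, 2.57 and 2.62% in knockout. Trpm1-214, from the cation channel gene of ON bipolar cells, was at 2.44, 2.89 and 2.81 RPKM in wild type against 4.66, 5.6 and 5.23 RPKM in knockout (log2 fold change 0.82 ± 0.14, adjusted p = 0.0482). In the opposite direction, the retained-intron form Tle5-207 was at 2.17 to 4.28 RPKM in wild type and at 4.12e-05 RPKM or lower in knockout (adjusted p = 0.0109). As a share of their own genes' RPKM, retained-intron forms passed only in Pds5a and Zfand5.

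**Figure D4:**
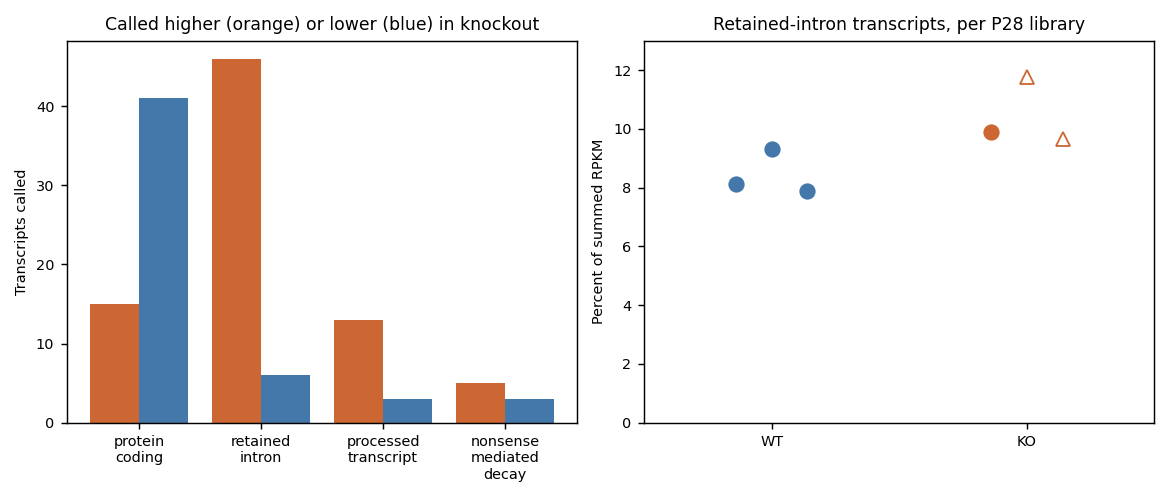
Left, number of transcripts called higher (orange) or lower (blue) in knockout for 4 annotation classes. Right, percent of summed RPKM held by retained-intron transcripts in each P28 library, with open triangles for female libraries. Retained-intron forms have 46 calls up and 6 down, and their share is 9.64 to 11.8% in knockout against 7.89 to 9.32% in wild type.

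Of the 140 called transcripts 45 belonged to genes called as a whole and 95 did not. Spc25-204, a coding form of a kinetochore gene, was at 1.12, 1.92 and 0.392 RPKM in wild type against 23.9, 12.4 and 17.4 RPKM in knockout (log2 fold change 3.55 ± 0.44, adjusted p = 0.0249). The main coding form Spc25-201 overlapped between genotypes, at 115, 99.7 and 120.1 RPKM in wild type against 82.1, 64.2 and 133 RPKM in knockout. Rpl24-204, a non-coding form of a ribosomal protein gene, was at 4, 0 and 0.00053 RPKM in wild type against 23.8, 73.7 and 44.7 RPKM in knockout (log2 fold change 5.38 ± 0.82, adjusted p = 0.0407), while the coding form Rpl24-201 was at 128, 88.5 and 98.7 RPKM in wild type against 65.6, 5.85 and 10.5 RPKM in knockout and did not pass (adjusted p = 0.356). Rpl11-210, a coding form, was at 7.65 to 11.5 RPKM in wild type and listed at 0 in every knockout library. Such near-complete switches between forms that overlap in sequence are estimates of kallisto and were not checked on reads here.

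The genotypes were also compared at 12 months, in 6 other libraries, so no sample is shared with P28. There 39.6% of the genes passed, a far larger background than at P28. Of the 165 rises at P28, 83 also rose at 12 months (16.1% of all genes did) and 4 fell. Of the 81 falls, 36 also fell (23.5% of all genes did) and 6 rose. Sex was divided the other way at 12 months, where 2 wild-type libraries and no knockout library were female. The median 12-month log2 fold change was 0.29 for the P28 rises and -0.26 for the P28 falls. The difference between the ages itself passed for 29 genes (0.176%), 13 of them among the P28 calls. That count was 2501 without knockout library 3, 235 without knockout library 2, 1 without any other P28 library and 0 with a term for sex.

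Pds5a had the clearest difference between ages. At 12 months its mean was 147 CPM in wild type against 207 CPM in knockout (log2 fold change 0.49, adjusted p = 0.00351), the opposite direction to P28. Hk2 (0.41, adjusted p = 0.0371) was likewise higher in knockout at 12 months, as was Hmgb2, a chromatin protein of dividing cells (0.36, adjusted p = 0.0168), which at P28 was at 33.8, 34.4 and 33.9 CPM in wild type against 18.6, 23.4 and 21.7 CPM in knockout (log2 fold change -0.66 ± 0.10, adjusted p = 0.0167). The cone gene Pde6h fell at both ages (-1.23, adjusted p = 0.00262 at 12 months), and so did Opn1sw, Prph2, Rbp3 and Gnat2. The chaperone genes Chordc1 and Hsph1 rose at both ages.

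**Figure D5:**
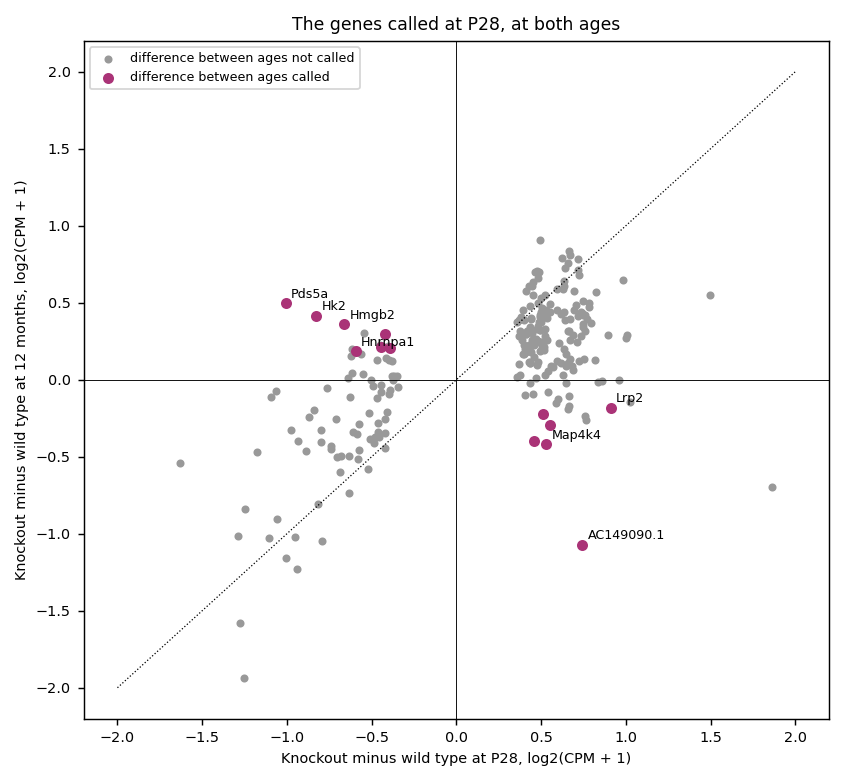
Log2 fold change, knockout minus wild type on the log2(CPM + 1) scale, at P28 (horizontal) and 12 months (vertical) of the 246 genes called at P28. The dotted line marks equal change. Purple points are the 13 genes whose difference between ages passed, all of which have opposite signs at the ages, such as Pds5a.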

How the data were processed

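Poly(A) RNA of retina was sequenced as 125-base paired reads, per the labels' protocols. Per the submitters' processing notes, kallisto 0.45.0 quantified the reads and edgeR 4.0.3 normalized them. Those notes name the human build GRCh38.p7, whereas the identifiers are mouse, and 51883 of 53028 genes matched GENCODE M21 (GRCm38) in chromosome and in an end. Gene levels come as CPM per TMM-scaled library, a linear signal that the authors deposited. Transcript levels come as RPKM that the authors deposited, and how those were made is not given in the sources used here. Neither holds whole reads, so no count model was used.

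limma 3.58.1 (R 4.3.3) was fitted to log2(CPM + 1), or log2(RPKM + 0.5) for transcripts with an RPKM of at least 0.5 in 3 or more of the 12 libraries, with 4 group means, eBayes with a trend, and Benjamini-Hochberg adjustment at 0.05. Fold changes of low genes are understated. Isoform shares were tested as the log2 ratio of a transcript to its gene's tested transcripts. Named genes are the targeted genes, then, of called genes with non-overlapping libraries and no predicted, clone or pseudogene name, the 12 rises and 12 falls largest in size, 8 and 8 by p and 4 and 4 by level, those called in each leave-one-out fit, up to 3 per list by p, up to 6 by the difference between ages, and up to 6 rises and 6 falls of isoform share. The gene lists, the comparison and the motifs were chosen with earlier results of these data known. Other genes and transcripts named were chosen after their values were seen. Splines for GC and length had 5 degrees of freedom, and 98.7% of tested genes had both. Female libraries were those with Xist over 100 CPM. Python 3.11.15 with pandas 2.3.3 and matplotlib 3.10.9 served for the rest. Some genes that the rule names are not reported here.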

Additional observations from a re-analysis of the deposited data

Results flagged for a closer look

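The effect of the knockout differed between P28 and 12 months by limma's interaction term for 10 named genes, given here as the P28 log2 fold change minus the 12-month one. Pds5a, the cohesin regulator, differed by -1.50 (adjusted p = 0.000958), falling in knockout at P28 and rising at 12 months. Hk2, a hexokinase, differed by -1.24 (adjusted p = 0.041) and the chromatin protein gene Hmgb2 by -1.02 (adjusted p = 0.0329), in the same pattern. Hnrnpa1, a splicing repressor, differed by -0.78 (adjusted p = 0.0244) and its relative Hnrnpdl by -0.79 (adjusted p = 0.041). mt-Nd3, a complex I subunit of the mitochondrial genome, differed by -1.796 (adjusted p = 0.0244), at -0.63 at P28 and 1.16 at 12 months.

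In the other direction, Lrp2, the receptor megalin, differed by 1.09 (adjusted p = 0.041) and Map4k4, a kinase of stress signalling, by 0.95 (adjusted p = 0.0372). Cx3cr1, the microglial fractalkine receptor, differed by 1.05 (adjusted p = 0.0478), at 0.55 at P28, where it did not pass, and -0.50 at 12 months (adjusted p = 0.01). The predicted gene AC149090.1 differed by 1.81 (adjusted p = 0.0244). Sex was divided in opposite ways between the genotypes at the 2 ages. With a term for sex, limma called 0 genes for this difference and 2962 had an unadjusted p under 0.05.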

How the results depend on the processing

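The 72 named genes that passed kept their direction in each of the settings and libraries left out that could be compared. With libraries left out, or in male libraries only, this was fixed beforehand. Knockout and wild-type libraries did not overlap in any called gene, so leaving some out could not reverse it. The calls of these 72 genes were less steady, with 908 of 1507 comparisons on the same side of the threshold. Against 246 genes, the count was 105 with any gene above 0 CPM in 3 libraries kept, 378 with GC and length trends removed, 2382 with array weights, 1 with a sex term, 23 in male libraries only (chosen after seeing the data), and 0 in the P28 libraries alone (limma, 2615 at an unadjusted p under 0.05). Without 1 library it ran from 3 to 1404. Other pseudocounts, scalings, a CPM minimum of 5, robust eBayes and summed RPKM gave 222 to 365. Transcripts numbered 140, 5 to 646 without 1 library, and 2 in the P28 libraries alone. Isoform shares numbered 4, 2 to 27 without 1 library, 0 in the P28 libraries alone (3244 unadjusted), 16 with an RPKM minimum of 2 and 9 with a pseudocount of 0.1. The difference between ages numbered 29, 1 to 2501 without 1 library, and 0 with a sex term (2962 unadjusted). The causes were not tested.

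Replicate numbers did not pair the libraries, since the deviations of same-numbered libraries correlated at 0.0879, -0.107 and 0.0476. With a replicate block the calls were 59 genes, 4 transcripts and 0 isoform shares (4199 unadjusted). Values near 3 reads, such as those of Pilra in wild type, are imprecise at this depth.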

Other observations

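Further called genes were picked after their values were seen, and no list or count of their pathways stands behind them. Odc1, the rate-limiting enzyme of polyamine synthesis, was at 121, 107 and 115 CPM in wild type against 71.8, 89.9 and 69.1 CPM in knockout (log2 fold change -0.58 ± 0.10, adjusted p = 0.0225), and Oaz1, the antizyme that sends it to the proteasome, was at 163, 140.1 and 148 CPM in wild type against 104, 85.7 and 99.1 CPM in knockout (log2 fold change -0.64 ± 0.13, adjusted p = 0.0362). Coq7, an enzyme of coenzyme Q synthesis, was at -0.69 (adjusted p = 0.0306), and Coq2, another, at -0.46 (adjusted p = 0.0475). Sqstm1, the p62 receptor of autophagy, was at 95.8, 88.8 and 95.3 CPM in wild type against 69.7, 68.4 and 70.1 CPM in knockout (log2 fold change -0.42 ± 0.07, adjusted p = 0.0225). Lamtor5, a subunit of the lysosomal scaffold of mTORC1, was at -0.47 (adjusted p = 0.0404). Rictor, the defining subunit of mTORC2, was higher, at 0.35 (adjusted p = 0.0465).

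Nxnl1, whose product is the rod-derived cone viability factor, was at 298, 254 and 268 CPM in wild type against 211, 192 and 189.6 CPM in knockout (log2 fold change -0.47 ± 0.08, adjusted p = 0.0255). Rdh11, a retinol dehydrogenase, was at -0.34 (adjusted p = 0.0433), and Adipor1, a receptor needed for docosahexaenoic acid in photoreceptors, at -0.39 (adjusted p = 0.0397). Tet1, which oxidizes methylcytosine, was at 57.8, 74 and 67.6 CPM in wild type against 105, 90.6 and 146 CPM in knockout (log2 fold change 0.75 ± 0.15, adjusted p = 0.0387). Jarid2, a cofactor of Polycomb complex PRC2, was at 0.66 (adjusted p = 0.0315), and Rb1, the retinoblastoma protein gene, at 0.53 (adjusted p = 0.0387). Adam22 and Adam23, which anchor LGI proteins at synapses, were at 0.53 (adjusted p = 0.0457) and 0.52 (adjusted p = 0.0296).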
